A study of Mus musculus with 5 samples.

Results

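RGS proteins (regulators of G protein signalling) were described here by the transcripts of 10 genes, Rgs2, Rgs3, Rgs4, Rgs6, Rgs7, Rgs8, Rgs10, Rgs14, Rgs16 and Rgs20, which were taken by gene symbol from the 55385 genes of the deposited count tables. All 10 were among the 19768 genes that passed the filter on low counts and were tested. Total RNA of the hippocampus was sequenced from 3-month-old male C57/bl6 mice, either untreated (control) or given kainic acid (KA), which excites neurons through glutamate receptors until seizures follow, intraperitoneally at 20 mg/kg. RNA was taken at 1, 4 or 8 h, counted from the onset of seizures and not from the injection. There was 1 library each for the control, 1 h and 8 h and a pair for 4 h, called library 1 and library 2, and the sources used here do not say whether a library was made from 1 mouse or from several. The comparison addresses how transcript levels in the hippocampus differ after seizures at each time.

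The control library held 19100374 counts on genes, the 1 h library 17744508, the 4 h pair 18250114 (library 1) and 19109204 (library 2), and the 8 h library 16612225. A count of 3 is here called the floor, to which lower counts were raised when genes at a given fold were counted, and equals 0.151 to 0.178 normalized CPM in these libraries. Normalized CPM are the counts of a gene divided by the size of its library after scaling by the trimmed mean of M values (TMM), on the usual scale of CPM. Where a gene is called the most abundant of its list, this is by normalized CPM without correction for exon length. Intervals given below are exact Poisson intervals of counts or exact binomial intervals of count ratios at 95%, and both cover counting error only. The control, 1 h and 8 h had no replicate, so that a difference between them had no replicate check, and the p-values of edgeR and DESeq2 rest on the spread of the 4 h pair (1 residual degree of freedom). Ranges over alternatives also include tests with an assumed coefficient of variation of 0.2 or 0.4, which take no spread from the pair.

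RGS proteins bind the activated alpha subunit of heterotrimeric G proteins and speed up its hydrolysis of GTP, which ends the signal that a receptor has started. The small proteins of the R4 family (here Rgs2, Rgs3, Rgs4, Rgs8 and Rgs16) act on Gi/o or Gq, and those of the R7 family (Rgs6 and Rgs7) are obligate partners of the beta subunit Gnb5. Rgs10 and Rgs14 belong to the R12 family and Rgs20 to the RZ family, and in the brain Rgs4 is known as a neuronal transcript, Rgs14 as a transcript of CA2 pyramidal cells, Rgs10 of microglia and Rgs16 of the thalamus.

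By the GENCODE annotation of GRCm38, 6 of the 10 (Rgs2, Rgs4, Rgs7, Rgs8, Rgs16 and Rgs20) lay on chromosome 1, where Rgs8 and Rgs16 were neighbours among protein-coding genes, 40.0 kb apart. Rgs4 lay 45.7 kb from Rgs5, and the nearest protein-coding gene to Rgs2 was Rgs13, at 134 kb. No other gene on the same strand shared exon sequence with a member. On the opposite strand, Gm28513 covered 10.1% of the exon length of Rgs16, and Gm17101 and Atp6v1h together covered 5.94% of that of Rgs20, while Gm29530 covered 0.768% of Rgs6 and Gm29529 0.726% of Rgs8. Gm28513 itself had 0, 1, 0, 2 and 1 counts in the control, at 1 h, in library 1 and library 2 at 4 h and at 8 h, the order of libraries kept throughout. The strand setting of the counting is not given in the sources used here, and if reads were counted without regard to strand, those of Rgs16 and Gm28513, and of Rgs20, Rgs6 and Rgs8 and their overlapping genes, cannot be told apart there.

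The pair at 4 h was uneven, and library 1 stood apart from the other 4 libraries. Of the 19768 genes tested, 2306 (11.7%) differed at least 2-fold between the libraries of the pair, and among the 10 RGS genes 1 did (Rgs16). The median absolute log2 ratio between the libraries was 0.27 over all genes tested and 0.53 over the 10 RGS genes. The median log2 ratio of library 1 to library 2 was 0.012 over all genes tested and 0.376 over the 10 RGS genes. All 6 markers of the choroid plexus, the epithelium that makes cerebrospinal fluid, were far lower in library 1. Their summed level was 4004, 1696, 30.0, 4280 and 3099 normalized CPM, and their most abundant gene, Ttr, had 74570, 27643, 275, 75088 and 50562 counts. In the other direction, the 8 markers of the thalamus summed to 84.9, 89.0, 405, 157 and 70.1 normalized CPM, with library 1 highest. The share of counts without a feature was 24.7%, 29.0%, 33.1%, 25.3% and 30.9%, and that of counts not unique 11.6%, 10.2%, 9.67%, 11.6% and 10.4%, with library 1 at the end of both ranges and the 1 h and 8 h libraries between it and library 2. The 10 immediate early genes, which neurons transcribe within minutes of activity, summed to 267, 5790, 3966, 1180 and 250 normalized CPM, also with library 1 well above library 2. For the members and for the medians of lists, 4 h values are therefore also given for each library, a choice made after the data were seen, and the part of tissue composition in any of them was not tested. In RNA of whole tissue, fewer cells of a type and less RNA per cell cannot be told apart.

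**Figure D1:**
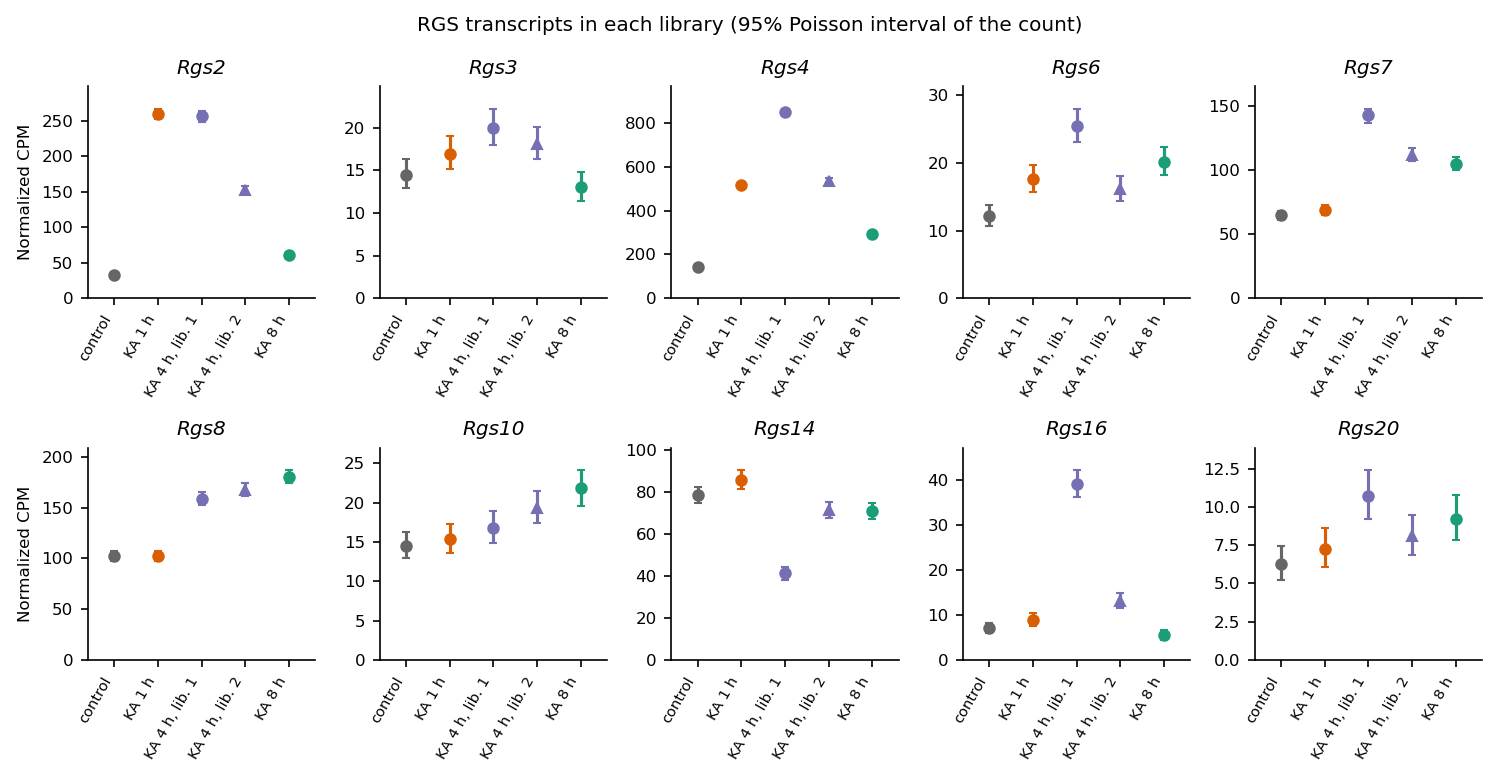
Normalized CPM (vertical axes, each starting at 0) of the 10 RGS transcripts in the 5 libraries (horizontal axes), with points for libraries and bars for the 95% Poisson interval of the count. Rgs2 stands at 259 at 1 h against 33.6 in the control, while Rgs16 is highest in library 1 at 4 h, at 39.0, with 13.1 in library 2.

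Of the 10 RGS genes, Rgs2 and Rgs4 were at least 2-fold above the control at 1 h, against 4.95% of all genes tested, and none was at least 2-fold below, against 3.39%. At 4 h, Rgs2 and Rgs4 were again at least 2-fold above the control in both libraries, against 4.54% of all genes, and none was as far below, against 1.48%. In library 1 alone 5 members passed this fold (Rgs2, Rgs4, Rgs6, Rgs7 and Rgs16), against 11.7% of all genes, and in library 2 alone 2 did (Rgs2 and Rgs4), against 6.24%. None was as far below in either, against 6.53% and 3.50%, and these counts for single libraries were chosen after the data were seen. At 8 h, Rgs4 alone was at least 2-fold above the control, against 6.46% of all genes, and none was as far below, against 3.18%. The 3 time points share 1 control library, so their values are given side by side and no overlap between them is read as a result.

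With p-values from the quasi-likelihood test of edgeR, adjusted over all genes tested by Benjamini-Hochberg, no RGS gene passed an adjusted p of 0.05 at 1, 4 or 8 h, where 0%, 0.00506% (1 gene) and 0% of all genes passed. The gene called at 4 h was ETV3L, named because the count was 1 and chosen after its values were seen. At an unadjusted p under 0.05 in the same test, 2 of 10 members passed at 1 h (Rgs2 and Rgs4), against 2.42% of all genes. There were 5 at 4 h (Rgs2, Rgs4, Rgs7, Rgs8 and Rgs16), against 11.6%, and 3 at 8 h (Rgs4, Rgs7 and Rgs8), against 4.51%. DESeq2, with its own adjustment by the same method, called Rgs2 and Rgs4 at 1 h, against 0.449% of the genes it tested, and again at 4 h, against 1.70%. It called no member at 8 h, against 0.235%. The medians of the 10 members' edgeR log2 fold changes were 0.22, 0.72 and 0.64 at 1, 4 and 8 h. Over all genes tested the medians were -0.005, 0.010 and 0.009, and over the other RGS genes tested 0.08, -0.14 and 0.01. The members were chosen with earlier results of these data known. Their median log2 ratio at 4 h was 0.91 in library 1 and 0.56 in library 2. Of the 10, 10 had a log2 fold change of 0.00 or above at 1 h, 9 were above 0 at 4 h and 7 at 8 h, where Rgs8 at 1 h turned to -0.07 when libraries were scaled by their size alone.

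Between the KA time points, edgeR called no member at 4 h against 1 h, where 0.00506% of all genes (again ETV3L) passed, and none at 8 h against 4 h, where 0% passed. At an unadjusted p under 0.05 in edgeR, Rgs7 and Rgs8 passed at 4 h against 1 h, against 7.93% of all genes, and Rgs2, Rgs4 and Rgs16 at 8 h against 4 h, against 8.73%. DESeq2 called none of the 10 at 4 h against 1 h, against 0.823% of genes, and called Rgs2, Rgs4 and Rgs16 at 8 h against 4 h, against 0.920%.

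**Figure D2:**
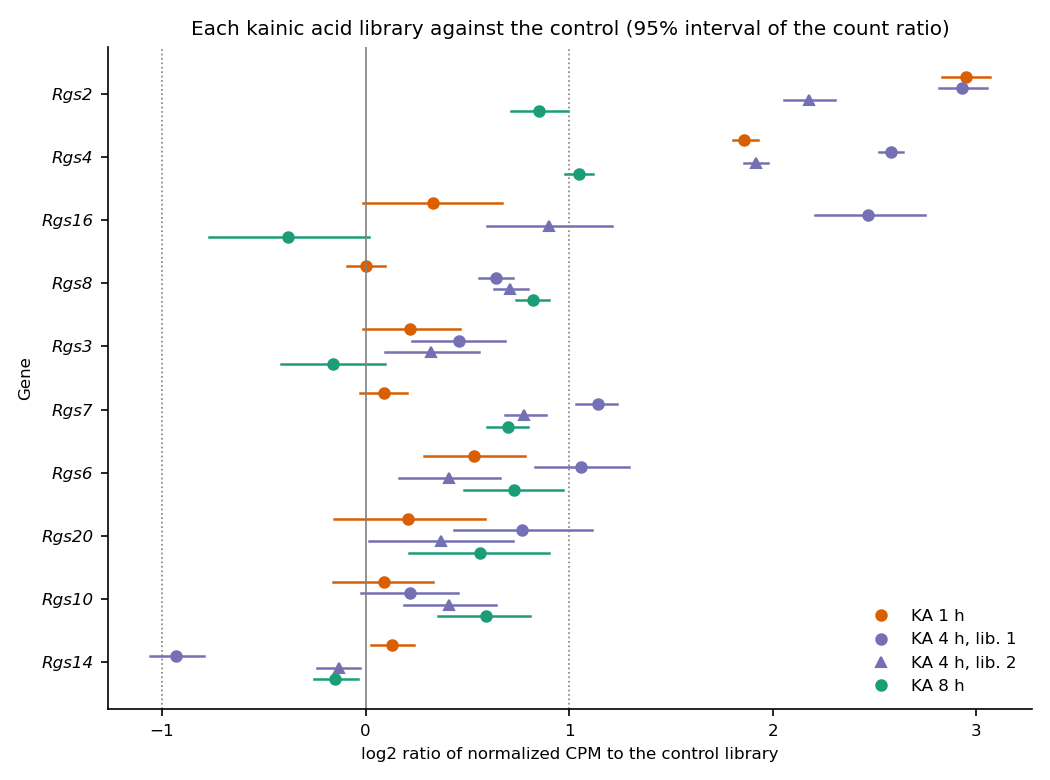
log2 ratio of normalized CPM to the control library (horizontal axis) for each KA library and RGS gene (vertical axis), with the 95% interval of the count ratio and dotted lines at 2-fold. Rgs2 and Rgs4 lie beyond 2-fold at 1 h and in both libraries at 4 h, whereas for Rgs16 the 4 h libraries lie apart, at 2.47 and 0.90.

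Rgs2 (ENSMUSG00000026360.9, chr1:143999338-144004161), an R4 protein that acts mainly on Gq and whose transcript is known to be induced by neuronal activity, had 669, 4557, 4325, 2880 and 1063 counts, or 33.6, 259, 257, 152 and 60.6 normalized CPM. The control was lowest and no interval of a KA library overlapped that of the control, while the 1 h library and library 1 at 4 h lay close together. Against the control the ratio was 7.71 at 1 h (95% interval 7.11 to 8.38), 7.64 (7.04 to 8.30) and 4.53 (4.16 to 4.94) in the 4 h pair and 1.80 (1.64 to 1.99) at 8 h. The edgeR estimates of the log2 fold change of Rgs2 were 2.94 (SE 0.40, adjusted p 0.686) for 1 h and 2.60 (SE 0.37, adjusted p 0.242) for 4 h. In DESeq2 the adjusted p-values of Rgs2 were 1.32e-09 at 1 h and 3.96e-10 at 4 h, within a range over all alternatives of 5.91e-30 to 0.549 at 1 h and of 3.62e-27 to 0.197 at 4 h. From 4 h to 8 h the log2 fold change was -1.75 (SE 0.35), with an adjusted p of 0.463 in edgeR, and the 8 h library stood at 0.236 of library 1 and 0.398 of library 2.

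Rgs4 (ENSMUSG00000038530.11, chr1:169741477-169747642), an R4 protein of neurons that acts on Gi/o and Gq, had 2827, 9089, 14322, 10153 and 5148 counts, or 142, 517, 850, 536 and 293 normalized CPM. Library 1 at 4 h was highest and the control lowest, and the 1 h library and library 2 at 4 h lay close to each other. The ratio to the control was 3.64 (95% interval 3.49 to 3.80) at 1 h, 5.99 (5.75 to 6.24) and 3.78 (3.63 to 3.94) in the 4 h pair and 2.07 (1.97 to 2.17) at 8 h. The edgeR log2 fold changes of Rgs4 at 1, 4 and 8 h were 1.86 (SE 0.35, adjusted p 1.00), 2.29 (SE 0.33, adjusted p 0.242) and 1.05 (SE 0.34, adjusted p 1.00). DESeq2 gave adjusted p-values of 5.47e-04 at 1 h and 3.15e-09 at 4 h, within ranges over the alternatives of 3.07e-14 to 1.00 and of 1.81e-24 to 0.355. At 8 h Rgs4 was thus the member farthest above the control, and from 4 h to 8 h its log2 fold change was -1.24 (SE 0.31), with an adjusted p of 0.474 in edgeR. Rgs5, its neighbour on the chromosome, had 91.8, 86.8, 83.1, 94.6 and 65.9 normalized CPM with a ratio to the control of 0.905 and 1.03 in the 4 h pair.

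Since Rgs2 and Rgs4 were high in the same libraries, the stretch before their starts is shown beside that of Rgs16, which had another pattern. The RefSeq promoter table of GRCm38.p6 held entries for 8 of the 10 members and none for Rgs14 and Rgs20. The sequences below run from 5′ to 3′ along the gene and end before the first base that RefSeq or GENCODE counts as transcribed. That of Rgs2 is chr1:144004162-144004399 (minus strand), that of Rgs4 is chr1:169747643-169747892 (minus strand) and that of Rgs16 is chr1:153740103-153740348 (plus strand). Capitals mark the motifs found, the core of the cyclic AMP response element (TGACG on either strand) and the TATA box (TATAAA on either strand).
Rgs2: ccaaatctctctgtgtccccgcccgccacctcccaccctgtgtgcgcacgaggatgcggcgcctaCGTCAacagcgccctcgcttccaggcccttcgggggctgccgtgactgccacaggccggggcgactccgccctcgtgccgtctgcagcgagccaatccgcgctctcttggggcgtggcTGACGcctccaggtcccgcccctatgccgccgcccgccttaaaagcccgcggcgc
Rgs4: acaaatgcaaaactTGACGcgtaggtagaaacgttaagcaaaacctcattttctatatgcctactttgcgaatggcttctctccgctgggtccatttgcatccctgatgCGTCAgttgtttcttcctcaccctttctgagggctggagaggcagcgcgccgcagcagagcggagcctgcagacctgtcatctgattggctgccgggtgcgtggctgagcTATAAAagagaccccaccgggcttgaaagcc
Rgs16: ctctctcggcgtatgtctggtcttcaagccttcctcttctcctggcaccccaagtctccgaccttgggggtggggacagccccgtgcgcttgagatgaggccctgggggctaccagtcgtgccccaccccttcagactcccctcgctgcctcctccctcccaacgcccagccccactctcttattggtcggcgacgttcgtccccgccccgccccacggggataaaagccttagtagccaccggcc

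In the 250 bases before the RefSeq start, Rgs2 held the core as CGTCA 185 to 181 bases and as TGACG 67 to 63 bases before the start. Rgs4 held it as TGACG 236 to 232 bases and as CGTCA 141 to 137 bases before the start, and had TATAAA 31 to 26 bases before it. Rgs16 held none of the motifs searched. Of the 11 promoters of 8 members, 3 held the core (Rgs2, Rgs4 and 1 of 3 entries of Rgs8) and 3 held TATAAA (Rgs4 and both entries of Rgs3), beside 17.9% and 12.3% of the 32536 different promoters of the table. The full element TGACGTCA, which contains the core, the AP-1 site TGANTCA, the EGR site GCGTGGGCG and the CArG box of serum response factor, all searched on both strands, were in none of the 8. They were in 1.56%, 6.73%, 0.541% and 1.48% of all promoters, in that order. A match describes letters in this window and shows no binding.

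Rgs16 (ENSMUSG00000026475.7, chr1:153740349-153745468), an R4 protein that acts on Gi/o and Gq, had 140, 155, 657, 248 and 95 counts, or 7.03, 8.81, 39.0, 13.1 and 5.41 normalized CPM. Library 1 at 4 h was far above all others, library 2 at 4 h came next, and the intervals of the control and 8 h overlapped. The ratio to the control was 5.55 (95% interval 4.62 to 6.71) in library 1 and 1.86 (1.51 to 2.31) in library 2, so that the pair differed 2.98-fold (2.57 to 3.46). In edgeR the log2 fold change was 1.87 (SE 0.69) at 4 h against the control, with an adjusted p of 0.408, and -2.24 (SE 0.71) at 8 h against 4 h, with an adjusted p of 0.517. DESeq2 gave the second comparison an adjusted p of 0.0391, within a range over the alternatives of 6.12e-08 to 0.541. With library 2 alone the log2 ratios were 0.90 at 4 h and -1.28 from 4 h to 8 h, and with library 1 alone 2.47 and -2.85.

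The libraries that were high in Rgs16 were also high in markers of the thalamus, which borders the hippocampus. All 8 markers were tested, 7 were above the control and 1 below it in each 4 h library (median log2 ratio 2.58 in library 1 and 0.59 in library 2, fitted median 1.95), and DESeq2 called Tnnt1 and Synpo2 higher. The most abundant, Prkcd, had 538, 511, 3355, 1493 and 418 counts, and Tnnt1 had 31, 13, 404, 102 and 12. Gbx2, a transcription factor that defines the developing thalamus, was at the floor or under it except in library 1, with 1, 1, 20, 3 and 0 counts, and Tcf7l2 had 53, 47, 220, 79 and 33. In library 2 at 4 h, Prkcd was 2.92-fold and Tnnt1 3.46-fold the control. The exception was Lhx9, with 225, 119, 122, 98 and 97 counts. At 8 h, when Rgs16 was 0.770 of the control (95% interval 0.587 to 1.01), 7 of the 8 markers had a log2 fold change below 0, with a median of -0.46. The part of thalamic tissue in the level of Rgs16 was not tested.

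**Figure D3:**
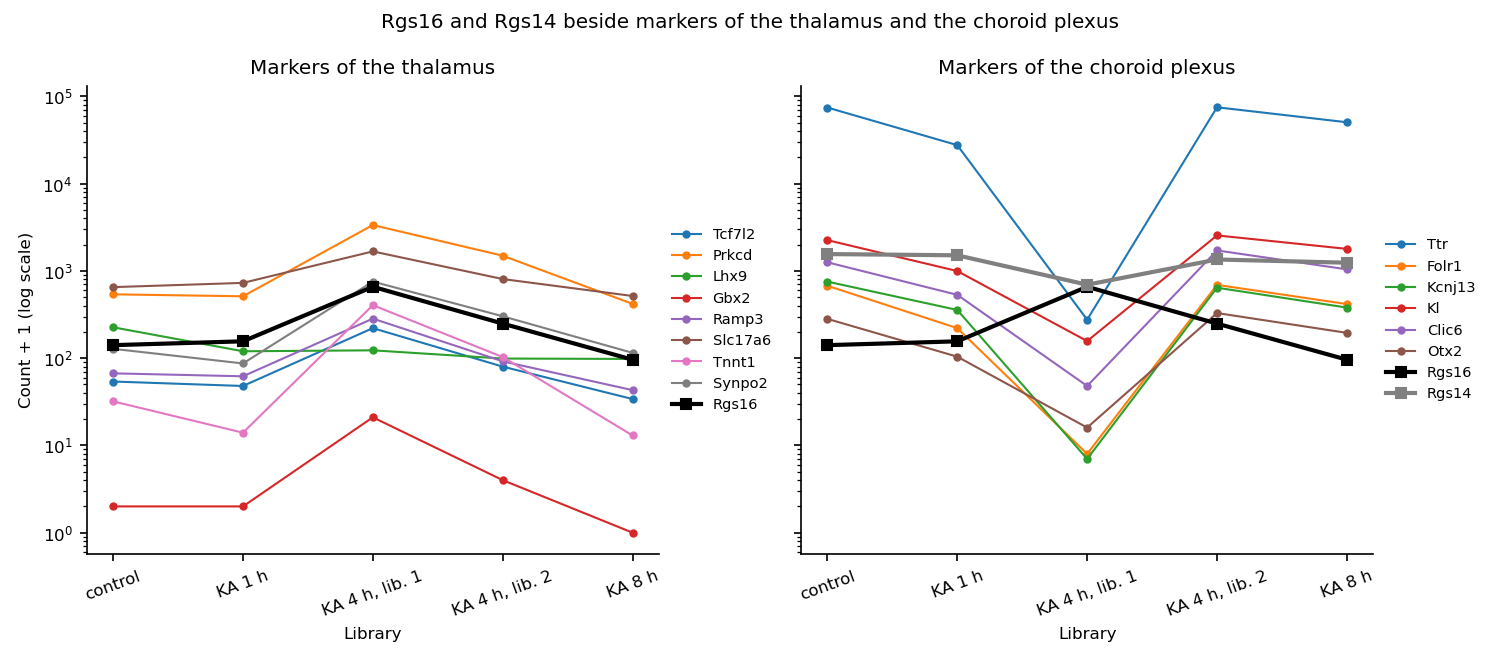
Counts plus 1 on a log scale (vertical axes) of the markers of the thalamus (left) and of the choroid plexus (right) in the 5 libraries (horizontal axes). Rgs16 (black squares) is drawn in both panels and Rgs14 (grey squares) in the right panel only. Lines join the values of a gene and mark no time course. Library 1 at 4 h has the highest Rgs16 count (657), the highest Prkcd count (3355) and the lowest Ttr count (275).

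Rgs8 (ENSMUSG00000042671.12, chr1:153653025-153700323), the R4 gene next to Rgs16 and a regulator of Gi/o, had another pattern. It had 2036, 1801, 2688, 3173 and 3167 counts, or 102, 102, 159, 168 and 180 normalized CPM. The control and the 1 h library were level, both 4 h libraries and the 8 h library were higher without overlap of intervals, and the pair at 4 h differed by a ratio of 0.951 (95% interval 0.903 to 1.00). Relative to the control, the 1 h library stood at 1.00, the 4 h pair at 1.56 and 1.64 and the 8 h library at 1.77 (95% interval 1.67 to 1.87). Rgs8 had edgeR log2 fold changes of 0.68 (SE 0.17, adjusted p 0.316) at 4 h and 0.82 (SE 0.19, adjusted p 0.883) at 8 h. Rgs3 (ENSMUSG00000059810.18, chr4:62559847-62704001), an R4 protein that also binds Gbetagamma, had 289, 298, 336, 343 and 228 counts, or 14.5, 16.9, 19.9, 18.1 and 13.0 normalized CPM. Its highest and lowest values, in library 1 and at 8 h, were 1.53-fold apart, and the interval of the control overlapped those of 1 h and 8 h. For Rgs3 the edgeR log2 fold changes were 0.22, 0.39 and -0.16 at 1, 4 and 8 h, each with an adjusted p of 0.588 or above.

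The R7 proteins among the members came next. Rgs7 (ENSMUSG00000026527.13, chr1:175059087-175492500), a Gi/o regulator of neurons that sits at the membrane with Gnb5, had 1293, 1212, 2403, 2116 and 1844 counts, or 64.9, 68.9, 143, 112 and 105 normalized CPM. The control and 1 h overlapped, and the 4 h and 8 h libraries lay above both. The ratio to the control was 2.20 (95% interval 2.05 to 2.35) and 1.72 (1.61 to 1.85) in the 4 h pair and 1.62 (1.51 to 1.74) at 8 h. In edgeR its log2 fold change was 0.97 (SE 0.22) at 4 h, with an adjusted p of 0.288, and 0.88 (SE 0.22) from 1 h to 4 h, with an adjusted p of 0.497. Rgs6 (ENSMUSG00000021219.16, chr12:82588292-83162056) had 243, 310, 429, 306 and 355 counts, or 12.2, 17.6, 25.5, 16.2 and 20.2 normalized CPM, lowest in the control and highest in library 1, and its 1 h, library 2 and 8 h values lay between. Its edgeR log2 fold change was 0.53 (SE 0.39), 0.76 (SE 0.35) and 0.72 (SE 0.39) at 1, 4 and 8 h, with adjusted p-values of 1.00, 0.471 and 1.00.

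The 5 binding partners of the R7 proteins were all tested, with fitted medians of 0.08, 0.37 and 0.15 at 1, 4 and 8 h. At 4 h 5 of 5 were above the control in library 1 (median log2 ratio 0.53) and 4 of 5 in library 2 (0.36), where Rgs9bp was at 0.752 of it. No partner passed an adjusted p of 0.05 in edgeR or DESeq2 at any time, and 2 passed an unadjusted p under 0.05 in edgeR at 4 h, both higher. These 2 were Rgs7bp and Gnb5. Rgs7bp, the most abundant and the anchor that holds R7 complexes at the membrane, had 265, 302, 528, 345 and 317 normalized CPM. Gnb5 had 101, 111, 129, 163 and 103 normalized CPM. It was at 1.28 of the control in library 1 and at 1.62 in library 2, so that library 2 was the higher, unlike for Rgs7bp. Rgs9bp, the anchor of Rgs9, had 14, 6, 18, 10 and 8 counts and was the partner at least 2-fold from the control at 1 h, at 0.485 of it.

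Of the R12 and RZ genes, Rgs14 (ENSMUSG00000052087.14, chr13:55369732-55384687) had 1559, 1509, 694, 1351 and 1241 counts, or 78.2, 85.8, 41.2, 71.4 and 70.7 normalized CPM. Library 1 at 4 h was far below the other 4, which lay within 70.7 to 85.8. The ratio to the control was 0.526 (95% interval 0.480 to 0.576) in library 1 and 0.912 (0.847 to 0.982) in library 2, and the edgeR log2 fold change at 4 h was -0.47 (SE 0.33), with an adjusted p of 0.615. The 5 markers of CA2, where Rgs14 is known to be enriched, summed to 116, 121, 114, 126 and 80.3 normalized CPM, and their genes went different ways in library 1. There Pcp4 was at 2.78 and Cacng5 at 1.24 of the control, while Map3k15 was at 0.364, Amigo2 at 0.708 and Necab2 at 0.835, and the median log2 ratio was -0.26 in library 1 and 0.29 in library 2. The most abundant gene, Necab2, had 64.6, 62.2, 53.9, 65.9 and 44.4 normalized CPM, none was at 0, and none passed an adjusted p of 0.05 in edgeR or DESeq2. The part of tissue composition in the low value of Rgs14 in library 1 was not tested.

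Rgs10 (ENSMUSG00000030844.11, chr7:128373621-128418758), a Gi/o regulator known from microglia, had 289, 271, 284, 365 and 382 counts, or 14.5, 15.4, 16.8, 19.3 and 21.8 normalized CPM. The interval of the 8 h library lay above those of the control, 1 h and library 1 and overlapped that of library 2 at 4 h. The edgeR log2 fold change was 0.09, 0.31 and 0.58 (SE 0.29) at 1, 4 and 8 h, the last with an adjusted p of 1.00. Rgs10 is not set beside markers of microglia here, and the part of tissue composition in its level was not tested. Rgs20 (ENSMUSG00000002459.17, chr1:4909576-5070285), a regulator of Gz, had 6.27, 7.27, 10.7, 8.08 and 9.23 normalized CPM. The interval of library 1 lay above those of the control and 1 h, and that of the 8 h library lay above that of the control but overlapped that of 1 h. For Rgs20 edgeR gave log2 fold changes of 0.57 (SE 0.34, adjusted p 0.558) at 4 h and 0.55 (SE 0.38, adjusted p 1.00) at 8 h.

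Levels can be set beside each other between genes only per length, here as normalized CPM per kb of exon. On that scale Rgs4 was highest in every library, with 45.8, 167, 274, 173 and 94.7. In the control, Rgs14 came second (18.5), followed by Rgs7 (10.8), Rgs8 (10.6), Rgs2 (9.26) and Rgs10 (8.48), of which Rgs7 and Rgs8 had overlapping intervals, as did Rgs2 and Rgs10. Rgs16 (3.00) stood below these, and Rgs20 (1.48), Rgs3 (1.34) and Rgs6 (1.22) overlapped at the bottom of the order. Rgs2 moved from the fifth place in the control to the second at 1 h (71.4) and in both 4 h libraries (70.7 and 41.9). At 8 h it stood at 16.7, where its interval overlapped those of Rgs7 (17.5) and Rgs14 (16.7). Rgs16 took the fourth place in library 1 (16.7), with an interval overlapping that of Rgs8 (16.5), and the seventh in library 2 (5.60).

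The 10 transcripts together made up 475, 1099, 1561, 1114 and 780 normalized CPM. This sum is not corrected for exon length, so that shares of it are shares of counts and rank no transcript above another. Rgs2 and Rgs4 contributed 36.9% of this sum in the control, 70.6% at 1 h, 70.9% and 61.8% in the 4 h pair and 45.4% at 8 h. The sum of the other 8 was 300 in the control, 323 at 1 h, 455 and 425 in the 4 h pair and 426 at 8 h, in normalized CPM.

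**Figure D4:**
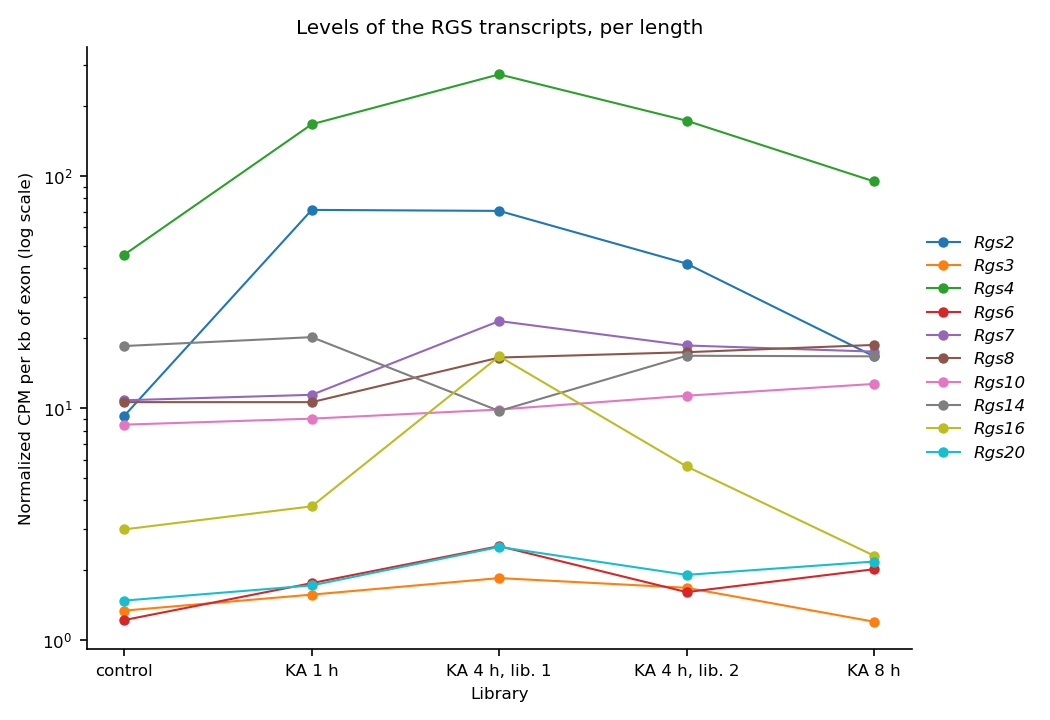
Normalized CPM per kb of exon on a log scale (vertical axis) of the 10 RGS transcripts in the 5 libraries (horizontal axis), where lines join the values of a gene and mark no time course. Rgs4 is highest in every library, from 45.8 to 274, and Rgs2 goes from 9.26 in the control to 71.4 at 1 h.

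Of the 12 other genes with an RGS symbol, 10 were tested, while Rgs18 reached no more than 3 counts in a library and Rgs21 had 0 in all. Their median log2 fold change in edgeR was 0.08, -0.14 (-0.34 in library 1 and -0.01 in library 2) and 0.01 at the 3 times, against 0.22, 0.72 and 0.64 for the 10 members, which were chosen with earlier results of these data known. No other RGS gene passed an adjusted p of 0.05 in edgeR or DESeq2, and at an unadjusted p under 0.05 in edgeR there were 0 at 1 h, 2 at 4 h (1 higher and 1 lower) and 2 at 8 h (both lower). Those at 4 h were Rgs9, at 1.61 and 1.58 of the control in the pair, and Rgs11, at 0.509 and 0.594. Those at 8 h were Rgs11, at 0.605 of the control, and Rgs12, at 0.660. Rgs11 had 29.9, 30.7, 15.2, 17.7 and 18.1 normalized CPM. The sum of the 12 was 277, 273, 266, 261 and 247 normalized CPM, with Rgs5, a transcript of pericytes, the most abundant. Rgs1 was at least 2-fold above the control at 1 h, with 4, 13, 21, 6 and 4 counts and a ratio of 3.68 (95% interval 1.14 to 15.5). Rgs13 was at least 2-fold below it at 8 h, with 14, 15, 6, 13 and 5 counts and a ratio of 0.405 whose interval (0.114 to 1.19) included 1.

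Of the G proteins, all 13 alpha subunits, those of the Gs and G12 classes included, were tested, with medians of -0.04, -0.10 and -0.20 in log2 fold change at 1, 4 and 8 h, and of -0.20 in library 1 and -0.10 in library 2 at 4 h. The most abundant, Gnas, had 943, 911, 903, 935 and 804 normalized CPM, and Gna15 was at least 2-fold below the control at 4 h, with 40, 24, 12, 14 and 27 counts. The 13 beta and gamma subunits had medians of -0.02, 0.12 and -0.12 (0.13 in library 1 and 0.08 in library 2). Their most abundant gene, Gnb1, had 440, 447, 494, 462 and 404 normalized CPM, and Gnb3 had 2, 4, 6, 8 and 52 counts, and was at least 2-fold above the floor of the control at 4 h and 8 h. Gna11 was at 0.695 and 0.709 of the control in the 4 h pair, and Gng3 and Gng4 were at 0.611 and 0.574 of it at 8 h. No subunit of either kind passed an adjusted p of 0.05 in edgeR or DESeq2, and in edgeR at an unadjusted p under 0.05 there were 0 at 1 h, 2 at 4 h (both lower) and 3 at 8 h (1 higher and 2 lower).

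Downstream, the 17 effectors, which are phospholipases, adenylyl cyclases and potassium channels, had medians of 0.01, -0.07 and -0.19 (-0.08 in library 1 and -0.15 in library 2), and none passed an adjusted p of 0.05 in edgeR or DESeq2. Adcy1, the most abundant, had 1401, 1695, 1329, 1237 and 1183 normalized CPM, and Kcnj5 was at least 2-fold above the control at 8 h, with 5, 8, 7, 11 and 9 counts. In edgeR, 0, 3 (2 higher and 1 lower) and 0 effectors passed an unadjusted p under 0.05 at 1, 4 and 8 h, against 2.42%, 11.6% and 4.51% of all genes, which are the shares for the other lists at these times too. The 3 effectors were Plcb4, at 2.88 and 1.58 of the control in the 4 h pair, Kcnj6, at 1.94 and 1.48, and Kcnj9, at 0.731 and 0.476. Upstream, the 22 receptors that couple to Gi/o or Gq had medians of 0.01, -0.10 and -0.34 (-0.08 in library 1 and -0.12 in library 2), with Gabbr1 the most abundant at 625, 671, 722, 695 and 580 normalized CPM. At least 2-fold below the control were Oprk1 at all 3 times (34, 13, 9, 16 and 8 counts), Htr1a and Grm2 at 4 h, and Chrm4 at 8 h. Htr1a had 816, 542, 338, 385 and 365 counts, while in normalized CPM Chrm4 had 14.3, 20.5, 19.2, 11.3 and 6.89 and Grm2 had 34.7, 31.4, 13.6, 10.5 and 59.1. Grm2 was called by DESeq2, lower at 4 h against the control and higher at 8 h against 4 h, and no receptor passed in edgeR, where 0, 2 (both lower) and 4 (1 higher and 3 lower) passed an unadjusted p under 0.05 at 1, 4 and 8 h.

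**Figure D5:**
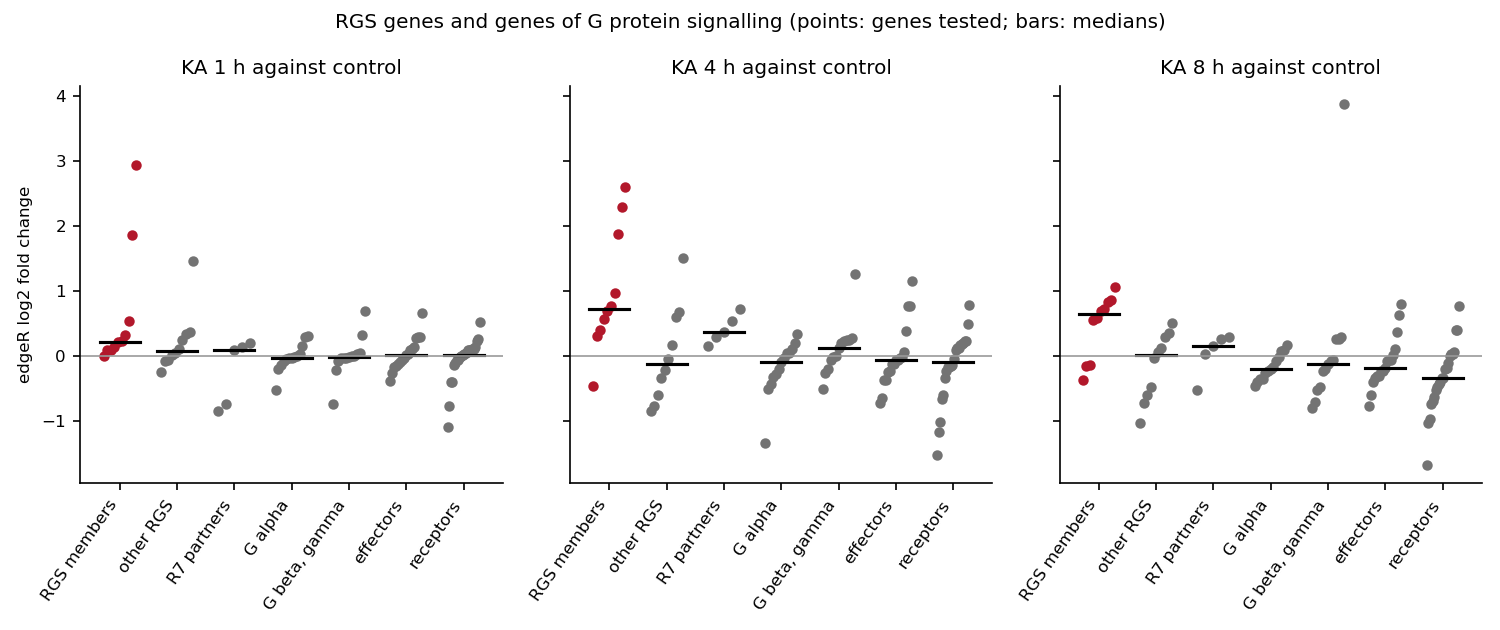
edgeR log2 fold change against the control (vertical axis) at 1, 4 and 8 h (panels) for the RGS members (red) and genes of G protein signalling (grey), where each point is a gene tested and bars are medians. The median of the members is 0.72 at 4 h, and that of the alpha subunits is -0.10.

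The stability of Rgs4, Rgs5 and Rgs16 proteins is known to be set by the N-degron pathway, whose arginyl transferase and N-recognins are Ate1, Ubr1, Ubr2 and Ubr4. All 4 were tested, with medians of 0.06, -0.06 and 0.05 in log2 fold change at 1, 4 and 8 h (-0.05 in both 4 h libraries). Their summed level was 638, 680, 691, 624 and 661 normalized CPM, with Ubr4 the highest in normalized CPM, at 298 in the control. None of the 4 passed an adjusted or an unadjusted p of 0.05 in edgeR, nor an adjusted p of 0.05 in DESeq2.

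The immediate early genes give the course of the activity response beside Rgs2 and Rgs4. All 10 were at least 2-fold above the control at 1 h, with a median log2 fold change of 4.28, whereas at 4 h 3 were so in both libraries (Fos, Fosb and Arc), with a fitted median of 2.08. That median rests on library 1, since the median log2 ratio was 2.83 in library 1 and 0.43 in library 2, where Egr1, Nr4a1 and Dusp1 were at 1.06, 1.02 and 1.03 of the control. At 8 h Fosb alone was, at 2.77-fold, Egr2 was at 0.497 of the control, and the median was -0.26. The most abundant, Arc, had 147, 2020, 2590, 927 and 151 normalized CPM, and Fos had 10.8, 998, 519, 70.3 and 17.2. At 8 h Arc was thus 1.03-fold the control, where Rgs4 was 2.07-fold and Rgs2 1.80-fold. Between the 4 h libraries the ratio was 1.69 (95% interval 1.61 to 1.77) for Rgs2 and 1.58 (1.54 to 1.63) for Rgs4, both with library 1 higher. DESeq2 called Fosb and Ier2 at 1 h and Fosb at 4 h, and edgeR called none by its adjusted p, with 10, 3 and 0 at an unadjusted p under 0.05 at 1, 4 and 8 h.

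Genes with the profile nearest to a member were sought among 9972 others with a mean of at least 10 normalized CPM, by the root mean square difference of the log2 ratios to the control over the 4 KA libraries. For Rgs2 these were Kdm6b (0.18), Ifrd1 (0.34) and Sertad1 (0.37), and Rgs4 stood at place 10 (0.59). Kdm6b, a histone demethylase, had 6.17, 49.2, 60.4, 28.2 and 11.6 normalized CPM. For Rgs4 they were Gm34583 (0.30), Mir22hg (0.31) and Dnajb5 (0.32), of which Dnajb5, a chaperone of the Hsp40 family, had 101, 258, 486, 345 and 183 normalized CPM.

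For Rgs16 the nearest were Map3k5 (0.07), Prkar2a (0.20) and Jarid2 (0.23), all highest in library 1 at 4 h. Map3k5 had 47.5, 56.5, 264, 93.5 and 34.2 normalized CPM. For Rgs7 they were Pros1 (0.05), Ago2 (0.08) and Id2 (0.09), for Rgs6 Gm38286 (0.12), Fgf2 (0.14) and Gm12346 (0.15), and for Rgs14 Matn2 (0.11), Srl (0.11) and Evc (0.12). Matn2 had 84.0, 85.1, 39.5, 73.3 and 80.1 normalized CPM, low in library 1 as Rgs14 was. With 4 libraries a near profile is a description of these libraries.

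The remaining markers describe the tissue in which the RGS transcripts were measured. The 5 neuronal markers summed to 2552, 2740, 2902, 2613 and 2342 normalized CPM (Snap25 most abundant), the 4 of astrocytes to 2998, 3108, 3476, 3205 and 2926 (Slc1a2) and the 4 of oligodendrocytes to 2579, 3152, 2977, 3803 and 2374 (Mbp). At 4 h the neuronal genes went different ways, 3 above the control and 2 below it in the edgeR fit. In the pair, Gad1 was at 2.01 and 1.48 and Gad2 at 1.47 and 1.52 of the control, and Rbfox3 at 0.688 and 0.692. Of the astrocyte genes, 2 were above the control at 8 h and 2 below it, with Gja1 at 0.507. Among hippocampal regions, the 4 dentate gyrus markers summed to 218, 224, 283, 206 and 259 normalized CPM (Prox1), the 4 of CA1 to 249, 229, 176, 205 and 204 (Fibcd1) and the 4 of CA3 to 140, 139, 273, 165 and 176 (Nectin3, at 3.96 of the control in library 1, where 2 of 4 were above it and Grik4 was at 0.658). Markers of hippocampal regions were thus present in all 5 libraries. Among the dentate gyrus markers the genes went different ways, since at 4 h DESeq2 called Prox1 higher and C1ql2 lower, and Dsp was at 0.0600 and 0.188 of the control in the 4 h pair. The 4 pericyte markers summed to 71.5, 76.8, 71.1, 73.1 and 91.5 (Vtn), the 3 of endothelium to 67.3, 67.5, 107, 63.5 and 80.6 (Flt1), and the 6 of striatum, of which Rgs9 and Drd2 are also on other lists and Six3 was not tested, to 52.9, 48.9, 42.8, 68.6 and 52.8 (Ppp1r1b). The striatum sum was lowest in library 1, where Ppp1r1b was at 0.518 of the control. Of the 5 striatum markers tested, 3 were above the control there, with a median log2 ratio of 0.24. No gene of these lists was at 0 in a library.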

How the data were processed

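RNA sequencing of total RNA from the mouse hippocampus was read from the deposited tables, which hold read counts per gene as the authors made them with STAR 2.5.1b and HTSeq on GRCm38.p4, per the submitters' processing notes. Neither the version of HTSeq nor its strand setting nor the release of the annotation is given in the sources. Of the 55385 genes, 55144 matched identifiers of GENCODE release M21 (54487 with the same version), from which exon lengths and positions were taken. Entries of the tables that name no gene were left out of the depth. They held between 24.7% and 33.1% of counts per library without a feature, between 1.26% and 1.52% ambiguous and between 9.67% and 11.6% not unique.

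The 5 libraries (control, KA 1 h, a pair at KA 4 h, KA 8 h) were fitted together in edgeR 4.0.16 under R 4.3.3, with the 4 conditions as groups, filterByExpr (19768 genes kept), TMM scaling, a prior count of 2 and the quasi-likelihood test. Adjustment was by Benjamini-Hochberg over all genes tested, with a threshold of 0.05. The residual degree of freedom is 1 and comes from the 4 h pair. Standard errors were taken from the log2 fold change and the F statistic. DESeq2 1.42.0 was run as an alternative. Fold calls required a ratio of 2 to the control (alternative 1.5), in both libraries at 4 h, with counts under the floor of 3 raised to it, and for genes of lists no ratio is printed where the control is at or under the floor. Intervals are exact Poisson for counts and exact binomial for ratios of counts. Tables and figures used Python 3.11.15, scipy 1.17.1 and matplotlib 3.10.9.

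The 10 members were chosen by symbol. The members and the lists of partners, subunits, effectors, receptors, N-degron genes, immediate early genes and markers of tissues and cell types were chosen with earlier results of these data known. All members are named, as are the most abundant gene of a list and those of a signalling list at least 2-fold from the control. Subunits, effectors, R7 partners and other RGS genes that passed an unadjusted p under 0.05 in edgeR against the control are named too. Nearest profiles were given for members whose highest value was at least 2-fold their lowest. Alternatives were scaling by library size alone, DESeq2, leaving out the filter, requiring 10 counts in each library, an assumed coefficient of variation of 0.2 or 0.4, the fold of 1.5 and leaving out either 4 h library. The procedure was tested on simulated data, whose results are not given here and support no value above. The list of microglial markers is not reported here.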

Additional observations from a re-analysis of the deposited data

Results flagged for a closer look

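For Rgs14 the log2 ratio to the control was 0.13 at 1 h, -0.93 in library 1 and -0.13 in library 2 at 4 h, and -0.15 at 8 h, so that the 1 h library lay above the control and the 4 h and 8 h libraries below it. The direct comparison of 4 h with 1 h in edgeR gave a log2 fold change of -0.61 (SE 0.33) with a Benjamini-Hochberg adjusted p of 0.687, lower than 1 h in 2 of 2 libraries, and DESeq2 gave an adjusted p of 1.00. The difference between 8 h and 1 h was not tested, and the cause was not tested.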

How the results depend on the processing

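Of 300 values of the 10 members under alternatives with a test, 259 kept their direction and their side of the threshold, 35 passed it in addition and 6 reversed. Genes called at 1, 4 and 8 h against the control, at 4 h against 1 h and at 8 h against 4 h numbered 57, 237, 22, 67 and 120 with scaling by library size alone, and 56, 238, 33, 109 and 129 with DESeq2. They numbered 285, 1300, 279, 725 and 957 without a filter on low counts, 1, 0, 0, 0 and 0 with at least 10 counts in every library (the gene was Cenpa, named after its values were seen), 238, 916, 184, 513 and 660 with an assumed coefficient of variation of 0.2, and 40, 81, 12, 33 and 48 with 0.4. At 1.5-fold, 2090, 1937 and 2741 genes were higher and 1743, 1231 and 1717 lower at 1, 4 and 8 h, with 5 members higher at 4 h and 6 at 8 h. With library size alone 446 genes were at least 2-fold lower at 4 h. Leaving out library 1 or library 2 at 4 h gave 1234 or 2317 genes higher, 692 or 1291 lower, and 2 or 5 members higher. With 1 library left at 4 h there is no test, and of 60 such member values 56 kept their sign and 4 did not. Reversed were Rgs8 at 1 h (-0.07 with library size alone, -0.00048 without a filter, -0.0032 with at least 10 counts), and at 8 h against 4 h Rgs6 (0.11 with library size alone) and Rgs20 (0.13 with library size alone, 0.005 with at least 10 counts), and the cause was not tested. The 4 whose sign differed, all without library 1, were Rgs6 at 4 h against 1 h (-0.12) and, at 8 h against 4 h, Rgs6 (0.32), Rgs20 (0.19) and Rgs14 (-0.01). Scaling by library size alone moved the median of all genes to -0.111 at 4 h and to 0.120 at 8 h against 4 h. Rgs2 and Rgs4 passed the threshold at 1 h and 4 h with library size alone, DESeq2, no filter and the coefficient of 0.2, and at no time with at least 10 counts or the coefficient of 0.4. Without a filter Rgs7, Rgs8 and Rgs16 also passed at 4 h, Rgs2 and Rgs4 at 8 h, and Rgs7 and Rgs16 at 4 h against 1 h. With the coefficient of 0.2 Rgs16 also passed at 4 h and at 4 h against 1 h. At 8 h against 4 h, Rgs2, Rgs4 and Rgs16 passed with DESeq2, no filter and the coefficient of 0.2, and Rgs2 with library size alone. No paired analysis was possible because 4 h alone has replicates. Depth limits the members with few counts, such as Rgs16 with 95 at 8 h, and Rgs20, whose mean over the 5 libraries was 8.31 normalized CPM.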
